A study of Mus musculus with 8 samples.

Results

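The Nrf2 antioxidant genes described here are 10 named genes of the pathway that answers oxidants and electrophiles: Nfe2l2, Keap1, Nqo1, Hmox1, Gclc, Gclm, Txnrd1, Srxn1, Prdx1 and Txn1. They were chosen by gene symbol in the platform annotation, and all 10 were found among the 9416 genes measured, with 16 of the 13247 probes in the deposited matrix. Where a gene had several probes, the probe with the highest mean over the arrays gave its main value.

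The data are 8 Illumina bead arrays of RNA from the epidermis of wild-type B6129 mice, 7 to 8 weeks old and shaved 3 days before treatment. The groups are females given fluocinolone acetonide (FA, a synthetic glucocorticoid), females given vehicle, males given FA and males given vehicle, with 2 arrays in each group. FA was applied once to the back skin as 2 µg in 200 µl of acetone, vehicle was acetone alone, and skin was taken 24 hours later. The design gives 2 animals for each condition, so each array was taken as 1 animal, and p-values measure the spread between these animals.

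Nfe2l2 encodes Nrf2, a transcription factor that binds antioxidant response elements together with small Maf proteins. Keap1 holds Nrf2 in the cytoplasm and passes it to a Cul3 ubiquitin ligase for destruction, until oxidants or electrophiles modify cysteines of Keap1 and Nrf2 accumulates. In skin, the pathway is known for protecting keratinocytes against ultraviolet light and chemicals, and much of its control lies in the stability of the Nrf2 protein, which arrays do not measure.

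The arrays were usable with 1 reservation. On 7 arrays 44.5% to 46.9% of probes were detected (detection p under 0.05), and on female FA replicate 2 it was 32.4%, with a floor of 5.88 on the log2 scale against 4.90 to 4.99 elsewhere. The floor is the lowest log2 value among an array's detected probes. All 8 keratinocyte markers were detected on all 8 arrays; of the measured markers of dermal fibroblasts and skeletal muscle, 1 of 8 and 2 of 7 were. In the mean FA effect, 2 of the 8 keratinocyte markers rose and 3 fell (log2 from -3.00 to 0.83), where 20.8% of all genes passed. Markers of other cells also moved with the drug or the sex. In the mean FA effect, 5 of 6 Langerhans and dendritic cell markers fell and 1 rose (list median -2.24), 5 of 6 dendritic epidermal T cell markers fell (median -1.01) and 3 of 8 fibroblast markers fell (median -1.06). Muscle markers summed to 417 to 952 in females with FA and 10042 to 18196 in males with FA (linear intensity). With vehicle they summed to 1452 to 3553 in females and 5805 to 6214 in males. In limma 4 of 7 were higher in males than in females with FA, against 0.191% of all genes. The part of these cells in the results below was not tested. The 7 measured glucocorticoid-induced check genes rose in both sexes, by a median of 2.07 in females and 1.74 in males on the log2 scale (7 of 7 passed in each). In this bulk tissue, fewer cells of a type and less RNA per cell cannot be told apart.

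Of the Nrf2 antioxidant genes, 9 of 10 did not pass the test a day after FA. Hmox1, the inducible haem oxygenase that breaks haem down to biliverdin, iron and carbon monoxide, rose 1.76-fold (log2 0.81 ± 0.21, SE of the limma fit, n = 4 FA and 4 vehicle arrays, limma adjusted p = 0.0340 over all genes). Srxn1 was higher, and Keap1 and Prdx1 lower, on every FA array than on every vehicle array, but none of these passed an adjusted p of 0.05. In the mean FA effect of the sexes, 1 of 10 members was called, against 20.8% of all 9416 genes (9.40% higher and 11.4% lower). The members' median change was -0.09 on the log2 scale and that of all genes -0.02. The median size of change regardless of sign was 0.34 for the members and 0.28 for all genes.

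**Figure D1:**
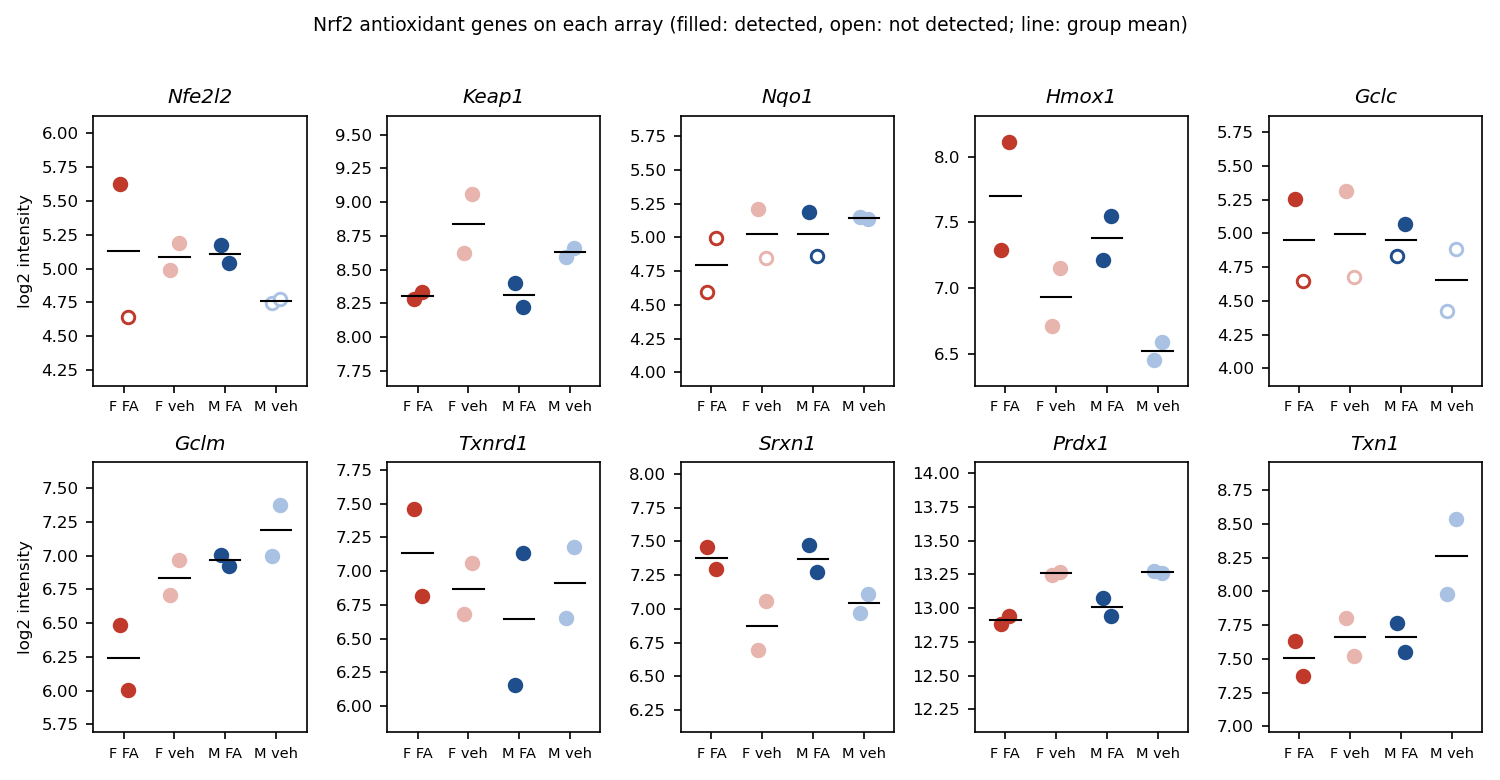
Log2 intensity of the main probe of each of the 10 genes on each of the 8 arrays, for females with FA, females with vehicle, males with FA and males with vehicle from left to right. Filled points were detected (p under 0.05), open points were not, lines are group means, and each panel has its own axis, so levels of different genes cannot be compared. Hmox1 and Srxn1 lie higher and Keap1 and Prdx1 lower on all 4 FA arrays, while Nfe2l2, Nqo1 and Gclc lie near background.

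Antioxidant response elements share a core, TGACNNNGC, where N is any base, and the stretches before the start sites of these genes show how widely it is spread among them. RefSeq windows of 300 bases (250 before and 50 after the start, build GRCm38.p6) were given for 8 of the 10 genes, with 10 windows in all, 3 of them for Txnrd1. Hmox1 and Gclc were not in the table. The core, read on either strand, stood in the windows of 5 of these 8 genes (Gclm, Nfe2l2, Prdx1, Srxn1 and Txnrd1) and in 5 of the 10 windows, against 12.4% of all 32851 windows. The variant with G at base 4, TGAGNNNGC, stood in the windows of 2 of the 8 genes (Srxn1 and Prdx1), against 19.8% of all genes. It stood in 2 of the 10 windows, against 17.6% of all windows. The palindromic glucocorticoid response element, searched with 1 base of each arm and the spacer free, stood in none of the 10 windows and in 0.475% of all windows. The core of Srxn1 lies after its start and is not printed, and the variant match of Srxn1 shown is 1 of 2 upstream. The core and its variant do not overlap at any match shown. An upstream match of each gene is printed below with up to 25 bases on either side, in the direction of the gene, with the match in capitals. Prdx1 and Srxn1 come first because their levels lay on opposite sides of vehicle.
Prdx1 (chr4:116685441-116685499, plus strand, core on the opposite strand, bases -133 to -125 from the start): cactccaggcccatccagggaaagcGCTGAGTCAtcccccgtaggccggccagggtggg
Srxn1 (chr2:152105454-152105512, plus strand, variant on the gene's strand, bases -45 to -37): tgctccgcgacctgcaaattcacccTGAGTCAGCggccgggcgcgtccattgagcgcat
Gclm (chr3:122245398-122245456, plus strand, core on the opposite strand, bases -134 to -126): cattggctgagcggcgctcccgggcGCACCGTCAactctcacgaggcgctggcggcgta
Txnrd1 (chr10:82859089-82859147, plus strand, core on the opposite strand, bases -92 to -84 from 1 of its 3 starts): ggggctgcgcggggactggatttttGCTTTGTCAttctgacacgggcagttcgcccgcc
Nfe2l2 (chr2:75704870-75704913, minus strand, core on the gene's strand, bases -240 to -232): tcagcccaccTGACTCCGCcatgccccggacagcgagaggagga
A match is a description of these letters, and binding was not measured here.

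The regulators come first. Nfe2l2 itself lay near background. Its log2 intensity was 5.62 and 4.64 in females with FA and 5.18 and 5.04 in males with FA, against 4.99 and 5.19 in females with vehicle and 4.74 and 4.77 in males with vehicle. It was detected on 3 of 4 FA arrays and on 2 of 4 vehicle arrays, none of them male vehicle. In males the FA arrays lay above the vehicle arrays, as they did for 28.5% of all genes. The male FA mean lay 1.10-fold above the mean of the male vehicle floors, and the change in males did not pass (limma adjusted p = 0.562). Over all arrays the FA mean lay under the mean of the FA floors, which female FA replicate 2 raises, and the vehicle mean under that of the vehicle floors, so no fold is given there (mean FA effect, limma adjusted p = 0.547). Without female FA replicate 2, where Nfe2l2 was not detected, the fitted change was 0.44 on the log2 scale, with 1 array left in female FA.

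Keap1 was lower on the FA arrays in both sexes. Its main probe read 8.28 and 8.33 in females with FA and 8.40 and 8.22 in males with FA, against 8.62 and 9.06 in females with vehicle and 8.60 and 8.66 in males with vehicle. The FA and vehicle arrays did not overlap, and the mean FA effect was -0.43 ± 0.14 (95% interval -0.74 to -0.11, limma adjusted p = 0.0637). Arrays of FA all below those of vehicle were seen for 2 of 10 members, Keap1 and Prdx1, and for 14.6% of all genes. The effect was -0.54 ± 0.19 in females (limma adjusted p = 0.120) and -0.32 ± 0.19 in males (limma adjusted p = 0.383). The other 3 Keap1 probes, fitted with all 13247 probes (of which 17.4% passed), gave -0.28 ± 0.13, -0.02 ± 0.13 and 0.12 ± 0.39, and all had FA arrays that overlapped vehicle arrays. The Keap1 probe at 0.12 was not detected on female FA replicate 1 and read 6.99 on female FA replicate 2, and from 4.94 to 5.80 on the other 7 arrays.

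Hmox1, whose product removes pro-oxidant haem, is a classic target that Bach1 represses and Nrf2 induces. Its log2 intensity was 7.29 and 8.11 in females with FA and 7.22 and 7.55 in males with FA. With vehicle it was 6.71 and 7.15 in females and 6.45 and 6.59 in males. Every FA array lay above every vehicle array, with the narrowest gap between male FA replicate 1 and female vehicle replicate 2. Hmox1 and Srxn1 were the 2 of 10 members with FA arrays all above the vehicle arrays, as were 11.6% of all genes. The Hmox1 change exceeded that of 95.7% of all genes. By sex it was 0.77 ± 0.30 in females (limma adjusted p = 0.145) and 0.86 ± 0.30 in males (limma adjusted p = 0.136), so neither sex passed alone, and the difference between the sexes was 0.09 ± 0.42 (95% interval -0.90 to 1.08).

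The Hmox1 call depended on which arrays were fitted. Leaving out a female FA array leaves 1 in that group. Without replicate 1, it is the array with 32.4% of probes detected. The call held without female FA replicate 1 (log2 1.02) and without female FA replicate 2 (0.61). It was lost without any 1 of the other 6 arrays, with values between 0.70 and 0.92 and adjusted p from 0.0636 to 0.121, with median scaling (0.53, adjusted p = 0.276), and with no detection filter (0.81, adjusted p = 0.0653). Median scaling moved the median of all genes to -0.19, against -0.02. The fit with no detection filter tested the same genes together with all probes that had no gene symbol in the annotation.

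Macrophages also express Hmox1, and their markers moved in both directions. Of 8 measured of 10 listed macrophage, neutrophil and mast cell markers, C1qa, C1qb and S100a9 rose and Adgre1, Mrc1 and Lyz2 fell in the mean FA effect, and 2 of the 8 were detected on all arrays. Their summed linear intensity was 973 to 1855 in females with FA against 604 to 754 in females with vehicle, and 1233 to 1465 in males with FA against 828 to 1954 in males with vehicle. The part of these cells in the Hmox1 value was not tested.

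Nqo1, a quinone reductase and the usual marker of Nrf2 activity, lay near background. It read 4.59 and 4.99 in females with FA and 5.19 and 4.86 in males with FA, against 5.21 and 4.84 in females with vehicle and 5.15 and 5.13 in males with vehicle. It was detected on 1 of 4 FA arrays and 3 of 4 vehicle arrays, and the groups overlapped. No fold is given, because the vehicle mean did not exceed the mean of the 4 FA floors, which female FA replicate 2 raises (mean FA effect, limma adjusted p = 0.471).

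Gclc and Gclm encode the catalytic and modifier subunits of glutamate-cysteine ligase, the enzyme that limits glutathione synthesis. Gclc was detected on 2 of 4 FA arrays and 1 of 4 vehicle arrays, with values from 4.65 to 5.25 with FA and from 4.42 to 5.32 with vehicle, so no fold is given. Gclm was detected on all 8 arrays. It read 6.48 and 6.01 in females with FA and 7.01 and 6.92 in males with FA, against 6.71 and 6.97 in females with vehicle and 6.999 and 7.38 in males with vehicle. The female arrays did not overlap and the male arrays did. In females 30.5% of all genes lay lower on both FA arrays and 25.8% higher, and in males 30.0% and 28.5%. The Gclm effect was -0.59 ± 0.23 in females (limma adjusted p = 0.140), -0.22 ± 0.23 in males (limma adjusted p = 0.640) and -0.41 ± 0.16 in the mean of the sexes (limma adjusted p = 0.116). Without female FA replicate 1, the mean effect of Gclm was -0.53, with female FA resting on replicate 2 alone, the array with 32.4% of probes detected.

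The last group is the thioredoxin system, in which Txnrd1 reduces the thioredoxin Txn1, Txn1 reduces the peroxidase Prdx1, and Srxn1 repairs Prdx1 that has been overoxidized. None of its 4 members passed the test. Txn1 read 7.63 and 7.38 in females with FA and 7.77 and 7.55 in males with FA, against 7.80 and 7.52 in females with vehicle and 7.98 and 8.53 in males with vehicle. The male FA arrays lay below the male vehicle arrays (-0.60 ± 0.23, limma adjusted p = 0.174), while the female arrays overlapped (-0.16 ± 0.23, limma adjusted p = 0.685). The mean Txn1 effect was -0.38 ± 0.17 (limma adjusted p = 0.150).

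Txnrd1 had the largest SD over the FA arrays of the 10 members (0.56). It read 7.46 and 6.82 in females with FA and 6.15 and 7.13 in males with FA, against 6.68 and 7.06 in females with vehicle and 6.65 and 7.18 in males with vehicle. Both sexes overlapped, and the mean effect was -0.00 ± 0.27, with a 95% interval of -0.63 to 0.62. Within each sex the effect was 0.27 ± 0.38 in females and -0.27 ± 0.38 in males.

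Prdx1, a cytosolic peroxiredoxin, had the smallest standard error of the members. Its log2 intensity was 12.88 and 12.94 in females with FA and 13.07 and 12.94 in males with FA, against 13.25 and 13.27 in females with vehicle and 13.27 and 13.26 in males with vehicle. All 4 FA arrays lay below all 4 vehicle arrays. The mean effect was -0.30 ± 0.11 (95% interval -0.55 to -0.05, limma adjusted p = 0.0846), with -0.34 ± 0.15 in females and -0.26 ± 0.15 in males. The other Prdx1 probe, detected on 5 of 8 arrays, gave -0.29 ± 0.21 in the fit of all probes.

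Srxn1 lay on the opposite side. Its main probe read 7.46 and 7.29 in females with FA and 7.47 and 7.27 in males with FA, against 6.70 and 7.06 in females with vehicle and 6.97 and 7.11 in males with vehicle. The mean effect was 0.41 ± 0.13 (95% interval 0.10 to 0.73, limma adjusted p = 0.0671), with 0.50 ± 0.19 in females and 0.33 ± 0.19 in males. The other Srxn1 probes gave 0.13 ± 0.24, detected on 7 of 8 arrays, and -0.06 ± 0.17, detected on 2 of 8. With median scaling, the Srxn1 effect in females was -0.19, where the median of all genes was -0.51, and its mean effect was 0.14, where that median was -0.19.

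**Figure D2:**
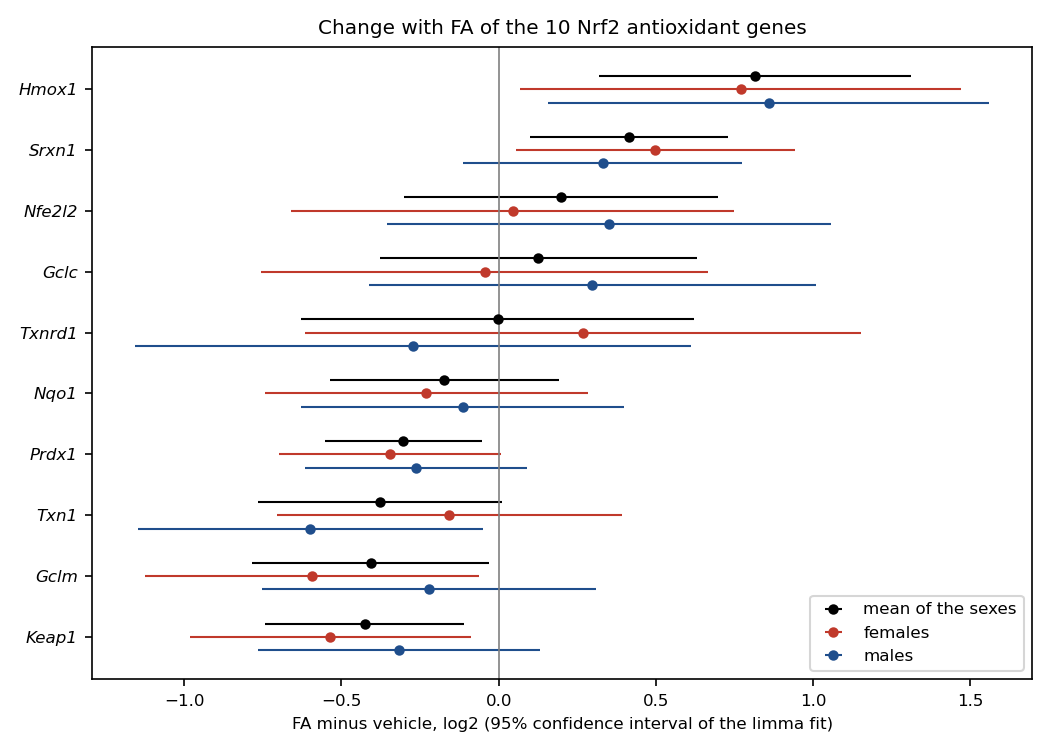
FA minus vehicle on the log2 scale for the 10 genes, in the mean of the sexes, in females and in males, with 95% confidence intervals of the limma fit as bars. In the mean of the sexes, the intervals of Hmox1 and Srxn1 lie above 0 and those of Keap1, Gclm and Prdx1 below 0. These are before adjustment for the number of genes, and after it Hmox1 passes. An unadjusted limma p under 0.05 was found there for 5 of the 10 members and for 3332 of all 9416 genes.

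**Figure D3:**
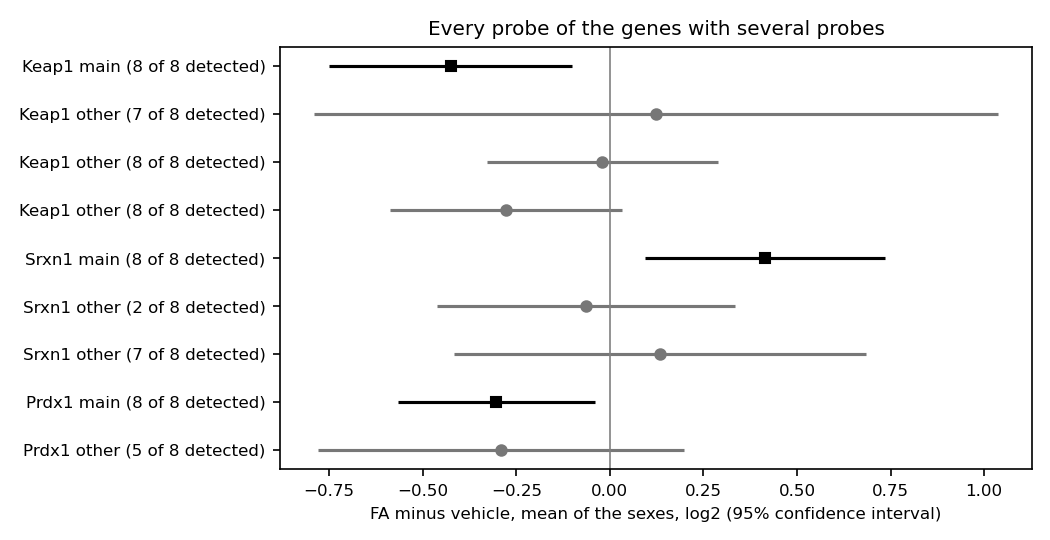
FA minus vehicle in the mean of the sexes, log2 with 95% confidence intervals, for every probe of Keap1, Srxn1 and Prdx1 in a fit of all probes. Squares are main probes and circles other probes. The other probes of Keap1 lie between -0.28 and 0.12 and those of Srxn1 between -0.06 and 0.13, nearer to 0 than the main probes at -0.43 and 0.41.

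The series asks whether the sexes respond differently, and for these 10 genes no difference passed in limma. In females 0 of 10 members passed, against 10% of all genes (4.57% higher and 5.46% lower), with 4 members at an unadjusted p under 0.05 (Keap1, Srxn1, Gclm and Hmox1), as had 2709 of all 9416 genes. In males 0 of 10 passed, against 8.19% of all genes (4.01% higher and 4.17% lower), with 2 at an unadjusted p under 0.05 (Hmox1 and Txn1), as had 2239 of all genes. The test of the difference, male minus female FA effect, called 0 of 10 members and 0.0212% of all genes, with no member at an unadjusted p under 0.05, against 618 genes. The members' differences ran from -0.54 for Txnrd1 to 0.37 for Gclm. With a standard error of 0.53 for Txnrd1 and 0.32 for Gclm, differences of this size could not be detected with 2 arrays per group.

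Between the sexes at 1 treatment, 0 of 10 members passed with vehicle (0.0743% of all genes did, 0.0319% higher and 0.0425% lower in males) or with FA (0.202% of all genes, 0.191% higher and 0.0106% lower in males). Male minus female in vehicle, Txn1 had 0.60 ± 0.23 (unadjusted p = 0.0366, limma adjusted p = 0.793). Male minus female in FA, Gclm had 0.72 ± 0.23 (unadjusted p = 0.0146, limma adjusted p = 0.315). No other member had an unadjusted p under 0.05 in these 2 comparisons, where 545 of 9416 genes did with vehicle and 1165 with FA.

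Genes around the pathway were read from 5 lists of its regulators and of other antioxidant enzymes. Of the Nrf2 partners and regulators, 14 of 20 were measured, with 1 higher and none lower, against 9.40% and 11.4% of all genes. Mafg, a small Maf partner of Nrf2, rose by 0.39 ± 0.11 (limma adjusted p = 0.0414), with 9.92, 9.80, 9.64 and 9.64 on the FA arrays and 9.48, 9.41, 9.33 and 9.23 on the vehicle arrays. Bach1, the repressor of Hmox1, had 0.52 ± 0.18 (limma adjusted p = 0.0774), Cul3 0.22 ± 0.11 and the autophagy receptor Sqstm1 0.31 ± 0.17, none of which passed. In the other direction, Rbx1 had -0.35 ± 0.13 (limma adjusted p = 0.0969) and Gsk3b -0.34 ± 0.29, and neither passed. The Mafg call held without female FA replicate 2 and was lost without any 1 of the other 7 arrays, with median scaling, with array weights, with sex left out and in the fit of all probes. The list's median was 0.19 on the log2 scale.

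Other Nrf2 target enzymes and transporters had 5 lower and none higher of 20 measured of 28, with a median of -0.31. Among all genes, 20.8% passed and 11.4% were lower. Idh1, the cytosolic isocitrate dehydrogenase, fell 3.08-fold (-1.62 ± 0.26, limma adjusted p = 0.00552). Tkt (-0.83 ± 0.17) and Taldo1 (-0.72 ± 0.16) of the pentose phosphate pathway fell as well, and so did malic enzyme Me1 (-0.50 ± 0.13). Akr1b8, an aldo-keto reductase, was at least 1.80-fold lower with FA, and was detected on 1 of 4 FA arrays and on 4 of 4 vehicle arrays. Its fitted change ran from -1.28 to -0.43 over the alternative settings and left-out arrays. The cystine carrier Slc7a11 was near background, and the ferritin heavy chain gene Fth1 had 0.07 ± 0.12. The count of 5 was 2 without either female vehicle array or male vehicle replicate 2, and 3 without male vehicle replicate 1 or male FA replicate 2. Idh1 and Akr1b8 passed without any 1 of the 8 arrays.

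In the glutathione list, of 27 measured of 31 genes, 4 were higher and 11 lower (15 of 27, against 20.8% of all genes), with a median of -0.38. The alpha-class transferases Gsta1 (4.55-fold lower, -2.19 ± 0.19) and Gsta2 (4.84-fold lower, -2.28 ± 0.22) fell, but are near-identical copies whose probes may share signal. Over the alternative settings and left-out arrays, Gsta1 ran from -2.37 to -1.37 and Gsta2 from -2.53 to -1.20. In females, Gsta2 was detected on 1 of 2 FA arrays and was at least 4.13-fold lower. Gstm2 fell by 1.67 ± 0.13 while its paralog Gstm1 rose by 0.98 ± 0.11, on probes of a family with similar sequences. Gstm1 read 8.56, 8.45, 8.16 and 8.11 on the FA arrays and 7.40, 7.19, 7.42 and 7.34 on the vehicle arrays.

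Gpx1, the cytosolic glutathione peroxidase, read 11.12 and 10.72 in females with FA and 11.23 and 11.33 in males with FA, against 12.76 and 12.80 in females with vehicle and 12.49 and 12.73 in males with vehicle. It fell 3.02-fold (-1.60 ± 0.14, limma adjusted p = 3.49e-04). Gpx3, the secreted peroxidase, rose 3.22-fold (1.69 ± 0.22, limma adjusted p = 0.00219) in the other direction, and Gpx4, which reduces lipid peroxides in membranes, fell by 0.60 ± 0.15. Over the alternative settings and left-out arrays, the Gpx3 change ran from 0.74 to 1.90. The membrane transferases Mgst1 (-1.84 ± 0.33) and Mgst2 (-1.65 ± 0.24) fell. Oplah, which recycles oxoproline to glutamate, rose by 0.95 ± 0.14, and Chac1, which degrades glutathione, by 0.50 ± 0.14. The Chac1 call was lost with a replicate block, median scaling or array weights and without any 1 of 5 of the 8 arrays (female vehicle replicate 1 and all 4 male arrays). The Gpx4 call was lost with sex left out and without either vehicle array of either sex or male FA replicate 2. Glutathione synthetase Gss had 0.33 ± 0.29 and did not pass. With median scaling, 1 gene of the list was higher. Without female FA replicate 2, the higher and lower genes numbered 5 and 11 here, 1 and 6 among the other targets, and 2 and 0 among the regulators.

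The summed level of sebaceous gland markers was lower on the FA arrays in females, and overlapped vehicle in males. Of 8 such markers 6 were measured and 2 detected on all arrays. Their summed linear intensity was 3834 to 6339 in females with FA against 12739 to 14271 in females with vehicle, and 7957 to 14771 in males with FA against 13862 to 14442 in males with vehicle. The mean of their log2 values in males was 7.77 to 8.55 with FA, against 7.64 to 7.68 with vehicle, so it did not follow the sum. In limma 1 of the 6 fell in females, against 5.46% of all genes, and 1 rose in males, against 4.01%. In the difference between the sexes 0 of the 6 passed, against 0.0212% of all genes. Mgst1 had -2.76 in females and -0.92 in males, while Gsta1 had -2.24 and -2.13 and Gpx1 -1.86 and -1.33. The part of the gland in these values was not tested.

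Thioredoxin, peroxiredoxin and glutaredoxin genes outside the 10 had 2 higher and 3 lower of 16 measured of 21, with a median of -0.20, against 9.40% higher and 11.4% lower among all genes. Txnip, the inhibitor of thioredoxin, rose 7.003-fold (2.81 ± 0.11, limma adjusted p = 3.53e-05), and read 14.03, 14.07, 13.82 and 13.96 on the FA arrays against 11.12, 11.21, 11.11 and 11.21 on the vehicle arrays. Sesn1, a sestrin, rose 4.08-fold (2.03 ± 0.13). Prdx4, the peroxiredoxin of the endoplasmic reticulum, fell 4.74-fold (-2.25 ± 0.34, limma adjusted p = 0.00476). Its change ran from -2.68 to -1.47 over the alternative settings and left-out arrays. The mitochondrial glutaredoxin Glrx5 fell by 0.69 ± 0.16 and nucleoredoxin, Nxn, by 0.69 ± 0.14. The count of 3 lower genes was 1 without either male vehicle array or male FA replicate 2, and 5 without either female FA array. It was 6 with no background correction and 5 with an intensity trend. Without female FA replicate 2, 3 were higher.

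Superoxide and peroxide enzymes had 2 lower and none higher of 10 measured of 16, with a median of -0.09, and 20.8% of all genes passed. Sod2, the mitochondrial superoxide dismutase, fell by 0.50 ± 0.12 (limma adjusted p = 0.0275), and Cyba, a subunit of the phagocyte oxidase, by 0.90 ± 0.26 (limma adjusted p = 0.0466). Neither passed without female vehicle replicate 1 or 2, male vehicle replicate 1 or 2, or male FA replicate 2, and Cyba did not without male FA replicate 1 either. Sod2 was also lost with median scaling, and Cyba with no detection filter, values at the floor, every probe fitted, sex left out or a replicate block. In females Cyba was detected on 1 of 2 FA arrays. It was at least 1.04-fold lower there, reckoned against the FA floors, and did not pass. Sod1 had -0.31 ± 0.13 and catalase, Cat, 0.42 ± 0.15, and neither passed.

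**Figure D4:**
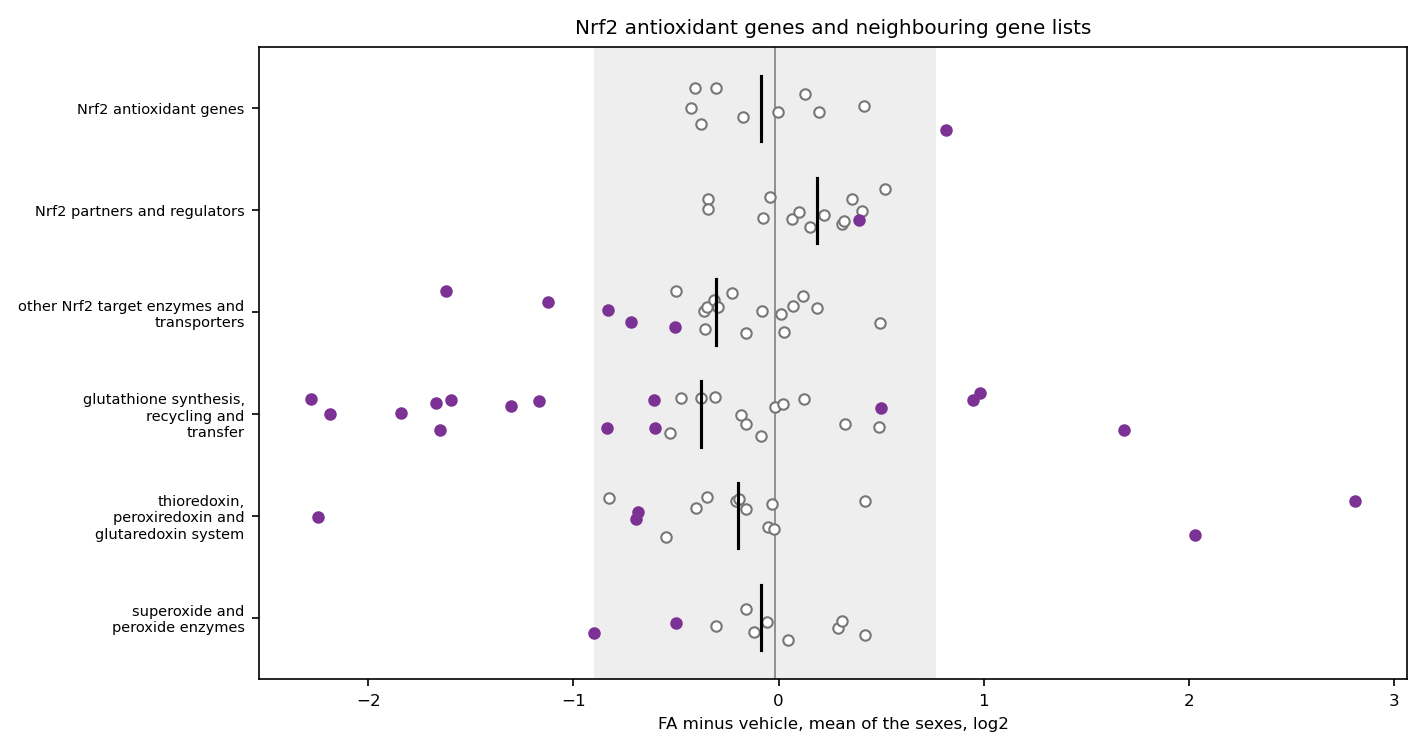
FA minus vehicle in the mean of the sexes, log2, for each measured gene of the Nrf2 antioxidant genes and of the 5 neighbouring lists. Filled points passed at a limma adjusted p under 0.05 over all genes, open points did not, black bars are list medians, and the grey band holds the central part of all genes, from the 5th (-0.89) to the 95th percentile (0.76). Hmox1 is the filled point of the top row, and the glutathione list holds the most filled points, 11 lower and 4 higher.

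Likeness of profile was measured for the 3 members with the smallest p, as the root mean square difference of log2 values centred on each gene's mean, over 8 arrays and 5616 genes detected on all of them. Hmox1 was most like Zfp956 (0.13), Ccdc144b (0.13) and Gmip (0.14), where its own spread around its mean was 0.51. Keap1 was most like Polr1d (0.08), Ankfy1 (0.08) and Prpf19 (0.08), with an own spread of 0.26. Srxn1 was most like Mon1a (0.05), Cc2d1a (0.07) and Pex6 (0.07), with an own spread of 0.24. No other member of the Nrf2 antioxidant genes was among these nearest profiles. With 3 of 5616 genes kept for each, this cannot show whether the members moved together.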

How the data were processed

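Of the 2 deposited tables, the first holds raw bead intensity for 25697 probes on 8 arrays, without background correction or normalization per the file headers. Per the file headers, each intensity has a deposited p-value of detection. The second is the authors' matrix of log2 values for 13247 probes. The submitters' processing notes name limma without a version, and the scanner software is not given in the sources used here. The deposited log2 values were obtained again to within 5e-09 with limma 3.58.1 in R 4.3.3 (neqc: normexp background correction, offset 16, quantile normalization). The matrix holds exactly the probes with a detection p below 0.05 in 2 or more arrays.

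Probes with 1 gene symbol (12476) were reduced to the brightest probe of 9416 genes. The 771 probes with none were left out. Group means were fitted in limma (lmFit, eBayes) with 4 residual and 3.35 prior degrees of freedom. Tests are two-sided, with Benjamini-Hochberg adjustment over 9416 genes. Errors are standard errors of this fit. The number of arrays limits the precision. "At least" folds are set against the floors of the dim group's arrays, means of normalized log2 values, and hold no sampling error. The fit was tested on simulated data. Alternatives covered background, scaling, filter, probe choice, design, variance model and each array. Array weights were equal for both arrays of a group, 0.44 in female FA and from 1.20 to 1.43 elsewhere. They weighted groups and could not weigh down a single array.

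The members and lists were chosen with earlier results of these data known. Named genes are all members and, of each list, up to 8 genes past the threshold in the mean FA effect with the smallest p, up to 2 past it in 1 sex only, and any counted among 5 or fewer. Profile likeness covers 3 members. Bach1, Cul3, Sqstm1, Slc7a11, Fth1, Gss, Sod1 and Cat are named for their roles, chosen after their values were seen. Rbx1 and Gsk3b are named as changes in the opposite direction.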

Additional observations from a re-analysis of the deposited data

How the results depend on the processing

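Values are log2 FA minus vehicle, and counts are genes or members past a limma adjusted p of 0.05. In the mean FA effect, members passing were 1, but 3 with no background correction and 3 with an intensity trend. They were 4 (Hmox1, Keap1, Srxn1 and Prdx1) when genes had to be detected on all 8 arrays, and 0 with median scaling or no detection filter. All genes passing were 1955, but 2455 with no background correction, 2464 with the trend and 2047 with detection on all arrays. With no detection filter, the same genes were tested together with all probes that had no gene symbol in the annotation. There 1882 genes and probes passed. Detection on all 8 arrays left fewer genes to test and dropped Nfe2l2, Nqo1 and Gclc. Median scaling gave 1092 genes (245 higher and 847 lower, against 885 and 1070). In females it gave 91 higher and 1138 lower, against 430 and 514, with a median of all genes of -0.51, and in males 237 and 176, against 378 and 393.

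In females 1 member passed with median scaling (Keap1) and 1 with an intensity trend (Prdx1), and genes numbered 1508 with no background correction, 1502 with the trend, 193 with each sex fitted by itself and 506 with array weights, against 944. In males 1 member (Hmox1) passed with each sex fitted by itself and with array weights, and genes numbered 1291 with no background correction, 413 with median scaling, 1282 with each sex by itself, 1280 with the trend and 1454 with array weights, against 771. The difference between the sexes had 5, 42 and 7 genes with no background correction, median scaling and the trend, 1 in the fit of every probe, and 0 when detected on all arrays, with no filter or at the floor, against 2.

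Directions turned as follows. In the mean effect, Txnrd1 was 0.012 with no background correction and Nqo1 0.15 with values at the floor. In females, Txnrd1 was -0.39 and Srxn1 -0.19 with median scaling, both above its median of all genes of -0.51, and Nqo1 0.38 and Gclc 0.46 at the floor. The male minus female difference with median scaling was 0.23 for Txnrd1, 0.64 for Srxn1 and 0.41 for Txn1, where the median of all genes was 0.08 in males and -0.51 in females; at the floor, -0.52 for Nfe2l2, -0.46 for Nqo1 and -0.44 for Gclc; with the mean of all probes, -0.037 for Keap1 and 0.023 for Srxn1. Median scaling moved all genes. Values at the floor raised each lower reading to its array's floor, which was 5.88 on female FA replicate 2 against 4.90 to 4.99 elsewhere. The cause of the remaining turns was not tested.

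Leaving out each array in turn gave 0 to 2 members and 1008 to 3585 genes in the mean effect, 0 to 2 and 216 to 3004 in females, 0 to 1 and 208 to 1497 in males, and 0 to 1135 genes in the difference. Between the sexes in FA, 0 to 1 members passed. The mean effect ranged from -0.048 to 0.44 for Nfe2l2, -0.034 to 0.29 for Gclc and -0.25 to 0.24 for Txnrd1. In females the ranges were -0.45 to 0.53 for Nfe2l2, -0.36 to 0.28 for Gclc and -0.051 to 0.59 for Txnrd1. In males they were -0.76 to 0.22 for Txnrd1 and -0.28 to 0.048 for Nqo1. The difference ranged from -0.082 to 0.32 for Nqo1, -0.35 to 0.012 for Srxn1, -0.32 to 0.50 for Hmox1 and -0.18 to 0.80 for Nfe2l2.

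Deviations of same-numbered arrays from their group means correlated between -0.03 and 0.23. With 2 arrays per group, this cannot show whether the replicate numbers pair the arrays. With a replicate block, 1906 genes passed in the mean effect, 837 in females, 677 in males and 0 in the difference, with 1 member (Hmox1, adjusted p = 0.0144) in the mean effect. Nfe2l2, Nqo1 and Gclc lay near background, which limits their values.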
